A study of Mus musculus with 16 samples.

Results

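The inflammatory cytokines and chemokines described here are 10 mouse genes, chosen by symbol from the 78317 genes listed for liver RNA. They are the cytokines Il1b and Tnf, the ligands Ccl2, Ccl5, Cxcl1, Cxcl9, Cxcl10 and Cxcl16, and the receptors Ccr2 and Cx3cr1. All 10 were listed, and 9 passed the filter on low counts. Tnf did not, and is given by its counts. The livers came from wild-type (wt) C57BL/6J mice from the Jackson Laboratory, which arrived aged 6 weeks and were fed for 10 weeks. The design had 4 groups with 4 libraries in each: females on normal chow (LabDiet 5053), with 4.5% of its energy as fat, females on a high fat diet (D12492), with 60%, and males on either diet. The diets had different makers and can differ in more than fat. RNA was taken from homogenized whole liver, so all liver cells contributed, and a change in the number of cells of a type cannot be told apart from a change in RNA per cell. The labels list the 4 libraries of a group as separate samples without stating that each was a separate animal, so the p-values measure the spread between these samples.

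Chemokines are small secreted or membrane-bound proteins that attract leukocytes through G protein-coupled receptors. In liver, they are made by resident macrophages (Kupffer cells), endothelial cells, stellate cells and hepatocytes. Ccl2 recruits Ccr2-bearing monocytes, Cxcl1 recruits neutrophils, and Cxcl9 and Cxcl10, which are induced by interferon gamma, recruit Cxcr3-bearing T and NK cells. Il1b and Tnf are cytokines through which activated macrophages drive NF-κB signalling in neighbouring cells.

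The sequences before the start sites of Cxcl9, Cxcl10, Cxcl1 and Il1b are shown because Cxcl9 and Cxcl10 varied together between livers, Cxcl1 showed little variation in common with either, and Il1b passed the test in 4 of the 5 comparisons below. Each is the 250 bases before the start site, 5′ to 3′ on the gene's strand, from RefSeq in build GRCm38.p6. Capitals mark matches to the motifs searched.
Cxcl9, chr5:92328080-92328329, minus strand: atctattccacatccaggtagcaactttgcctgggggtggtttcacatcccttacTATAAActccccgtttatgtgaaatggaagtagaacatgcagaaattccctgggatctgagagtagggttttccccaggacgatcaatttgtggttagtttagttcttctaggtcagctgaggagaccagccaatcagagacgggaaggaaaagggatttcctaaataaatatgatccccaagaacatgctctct
Cxcl10, chr5:92348890-92349139, minus strand: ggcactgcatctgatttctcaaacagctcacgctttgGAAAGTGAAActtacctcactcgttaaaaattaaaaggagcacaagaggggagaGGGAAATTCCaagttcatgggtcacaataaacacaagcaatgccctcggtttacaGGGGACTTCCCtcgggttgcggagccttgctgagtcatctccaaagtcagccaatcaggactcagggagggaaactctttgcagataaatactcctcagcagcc
Cxcl1, chr5:90890995-90891244, plus strand: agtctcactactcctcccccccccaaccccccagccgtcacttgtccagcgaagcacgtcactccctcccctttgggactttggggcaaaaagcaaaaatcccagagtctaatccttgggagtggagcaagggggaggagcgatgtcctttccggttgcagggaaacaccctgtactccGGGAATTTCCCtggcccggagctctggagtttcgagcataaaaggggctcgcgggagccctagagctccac
Il1b, chr2:129371140-129371389, minus strand: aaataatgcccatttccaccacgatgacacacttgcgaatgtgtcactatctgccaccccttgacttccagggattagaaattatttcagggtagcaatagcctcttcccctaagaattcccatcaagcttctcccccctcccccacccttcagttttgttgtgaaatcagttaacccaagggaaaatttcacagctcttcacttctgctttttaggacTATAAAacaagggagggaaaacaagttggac
The letters searched were the κB motif of NF-κB, the core of the interferon-stimulated response element (ISRE) and the gamma-activated site TTCNNNGAA on both strands, and the TATA box TATAAA on the gene's strand. Of 32851 windows of this length in the RefSeq table, 7.25% held the κB motif, 2.98% the ISRE core, 7.02% the gamma-activated site and 7.59% the TATA box. Cxcl10 held the ISRE core 213 to 204 bases before its start and κB matches at 159 to 150 and at 104 to 95 bases, the latter overlapping another at 103 to 94. Cxcl1 held a κB match at 71 to 62 bases, overlapping one on the other strand at 70 to 61. Il1b held TATAAA 31 to 26 bases before its start, and Cxcl9 held it 195 to 190 bases before its own. The table also held windows for Tnf, with TATAAA at 29 to 24 bases, and for Ccr2 and Cx3cr1, neither of which held any of these letters. It was searched for 7 of the 10 genes, the others being Ccl2, Ccl5 and Cxcl16. Matches describe the letters and are not measured binding sites.

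The libraries held 22228115 to 41420589 expected counts each. Xist and the Y-linked Ddx3y matched the sex label in all 16 libraries, and albumin took 3.73% to 9.17% of counts, the main product of hepatocytes. Replicates 2 and 3 of the males on the high fat diet lay close together. Their chi-square statistic per gene was 3.87, against 20.6 or more for every other pair within a group and 54.4 to 306.5 for the other pairs of their own. They are listed as separate samples, were counted as such, and were also averaged into 1 in an alternative. The summed level of 6 hepatocyte markers was 79494 to 96448 CPM (counts scaled to library size with TMM factors) in females on the high fat diet and 103038 to 116752 CPM on chow. In males it was 52663 to 73950 and 83171 to 94137 CPM, so the diets did not overlap in either sex. Albumin made up most of these sums. Unscaled, its share overlapped between the female diets, at 7.39% to 8.75% on the high fat diet and 8.40% to 9.17% on chow. By edgeR (adjusted p under 0.05), 2 of the 6 fell in females (Tat, Cps1) and 3 in males (Alb, Serpina1a, Tat). Alb had a log2 fold change of -0.33 ± 0.14 in females (adjusted p = 0.137). The summed level of 4 adipocyte markers was 0.966, 10.5, 10.9 and 5.76 CPM in high fat diet males and 0.685 to 1.84 CPM in chow males, with Lep at 0 in some libraries, and at most 2.76 CPM in any female. That of 7 pancreatic acinar markers was 12.7 to 38.9 CPM in high fat diet males, 5.14 to 14.7 in chow males and 4.65 to 11.4 in females, with Prss2, Cpa1, Ctrb1, Pnlip and Cel at 0 in some libraries of every group. Cfd (log2 fold change 4.07, adjusted p = 0.0236) and Cela2a (3.04, adjusted p = 0.0152) were the genes of the adipocyte and acinar lists called in males. The part of these markers in the changes below was not tested.

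On the high fat diet, 7 of the 9 tested genes rose in females: Il1b, Ccl2, Ccl5, Ccr2, Cx3cr1, Cxcl10 and Cxcl16. Of all 14781 tested genes, 11.5% were called in females and 5.74% were called higher. The genes were chosen with earlier results of these data known, so such shares are given as description and do not test the set. In males, Il1b, Ccr2 and Cx3cr1 rose, 3 of the 9, where 11.4% of all genes were called and 6.03% were called higher. A gene was called at a Benjamini-Hochberg adjusted p under 0.05 over all tested genes in edgeR's quasi-likelihood test. None of the 9 fell in either sex, where 5.76% (females) and 5.36% (males) of all genes were called lower, and all 9 had a log2 fold change above 0 in both. Their median log2 fold change was 1.81 in females and 1.56 in males, beside medians over all tested genes of 0.00 and 0.01. In each sex, 6 of the 9 had all 4 high fat diet libraries above all 4 on chow, which held for 8.71% of all tested genes in females and 9.32% in males. The difference between the sexes in the diet change was called for none of the 9, where 0.677% of all genes were called. At an unadjusted p under 0.05 there was 1 (Cxcl10), and DESeq2 called 0. The female count of 7 was 4 without female high fat diet replicate 4 or without female chow replicate 4, and ranged up to 8 without other libraries.

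**Figure D1:**
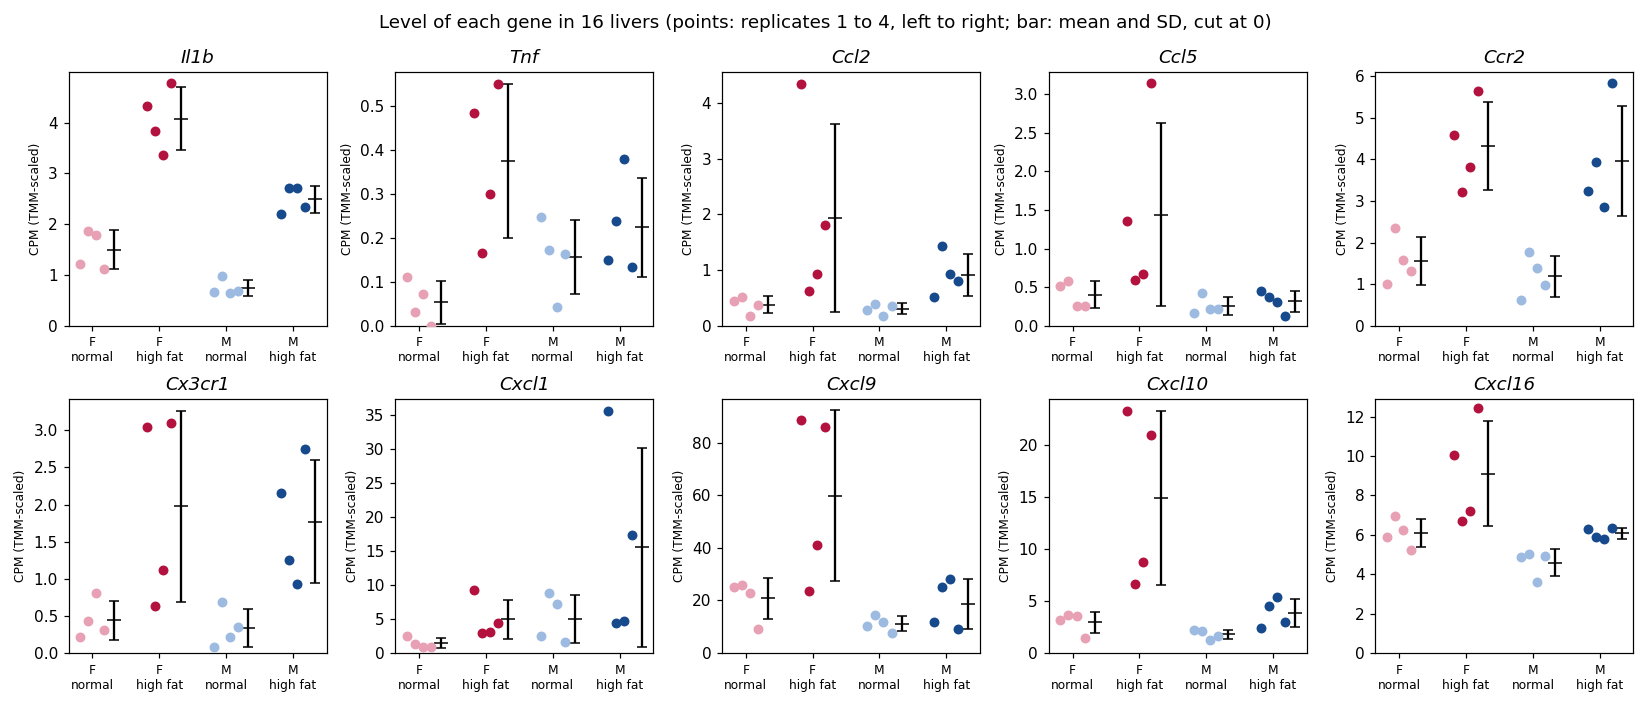
Level of each of the 10 genes in 16 livers, in TMM-scaled CPM on an axis from 0 for each gene, by sex (F, M) and diet. Points are replicates 1 to 4 from left to right, and bars are the mean and SD. Il1b and Ccr2 on the high fat diet lie above all chow livers of the same sex, while Cxcl1 in males on the high fat diet runs from 4.45 to 35.5 CPM.

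**Figure D2:**
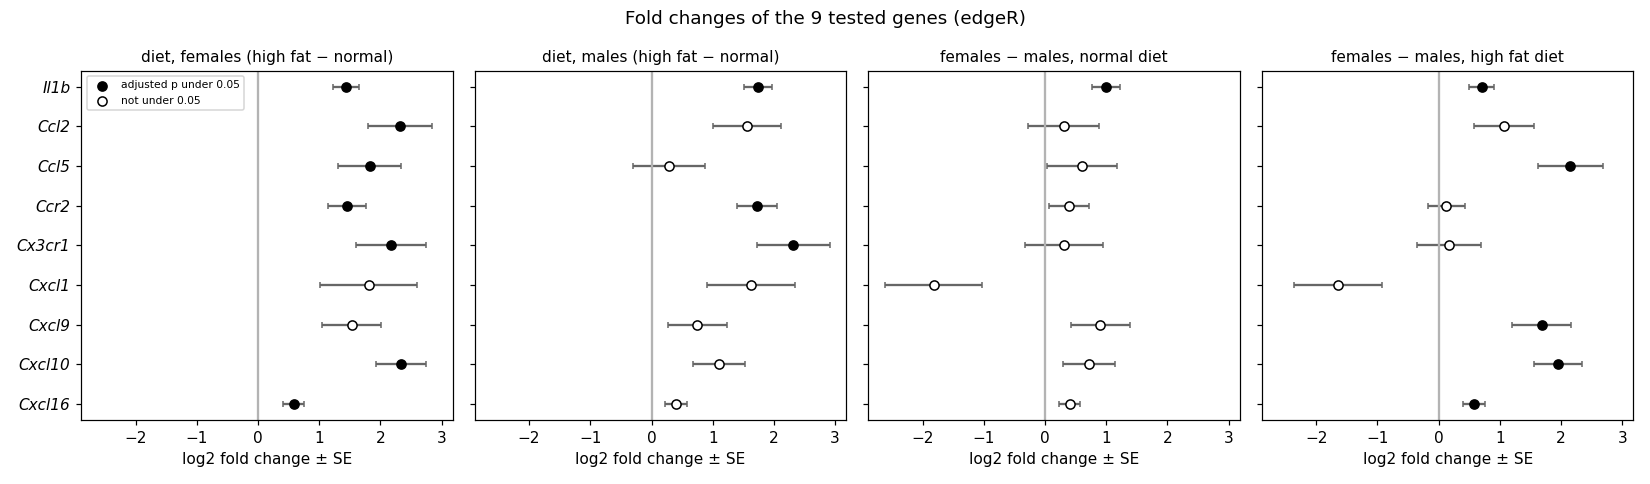
Log2 fold changes with SE for the 9 tested genes, for diet within each sex and for females against males on each diet. Filled points passed the test (adjusted p under 0.05). In the diet panels all points lie above 0, and 7 are filled in females and 3 in males.

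Il1b (ENSMUSG00000027398.14) encodes interleukin-1 beta, which is made as a precursor by activated macrophages and cut by caspase-1. Its level in females on the high fat diet was 4.32, 3.84, 3.37 and 4.79 CPM in replicates 1 to 4, against 1.22, 1.87, 1.79 and 1.11 CPM on chow. In males it was 2.19, 2.72, 2.71 and 2.35 CPM on the high fat diet and 0.659, 0.970, 0.648 and 0.677 CPM on chow. Each diet separated cleanly within a sex, and each sex within a diet. Il1b rose by a log2 fold change of 1.44 ± 0.21 (SE, adjusted p = 0.00035) in females and 1.74 ± 0.23 (adjusted p = 0.000116) in males. Females were also higher than males, by 1.00 ± 0.23 (adjusted p = 0.00674) on chow and 0.71 ± 0.21 (adjusted p = 0.0215) on the high fat diet. The descending order was therefore females on the high fat diet, males on the high fat diet, females on chow and males on chow, and no neighbouring groups overlapped. The diet change did not differ detectably between the sexes, with a difference of -0.30 ± 0.30 (adjusted p = 0.734). The sex difference on the high fat diet had an adjusted p of 0.0513 without female replicate 1, 0.0613 without female replicate 4 and 0.0537 without male replicate 4. An antisense gene that shares exon sequence with Il1b, Il1bos, had at most 0.149 CPM in any library.

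Tnf (ENSMUSG00000024401.15), tumour necrosis factor, gave few reads. High fat diet females had 16, 5, 8 and 14 counts in replicates 1 to 4, and on chow 3, 1, 2 and 0. The count of 0 allows up to 0.0760 CPM in that library (3 counts, counting error only). In males the counts were 4, 7, 11 and 3 on the high fat diet and 6, 6, 1 and 6 on chow. Female libraries on the high fat diet were all above those on chow, and the male groups overlapped. Scaled to depth, Tnf was 0.374 ± 0.175 CPM (SD, n = 4) against 0.0538 ± 0.0487 CPM in females. A two-sided exact permutation test gave p = 0.0286, the lowest that 4 against 4 allows, or 0.114 after adjustment over the 4 comparisons made. In males it was 0.224 ± 0.112 against 0.156 ± 0.0842 CPM (n = 4, exact permutation p = 0.486). At this depth, a male change was not detectable.

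Ccl2 (ENSMUSG00000035385.6), the monocyte attractant also known as MCP-1, rose in females. Its level in them was 4.35, 0.628, 0.935 and 1.81 CPM on the high fat diet and 0.445, 0.521, 0.183 and 0.380 CPM on chow. Replicate 1 alone held more than the other high fat diet females together, yet all 4 exceeded all 4 on chow. The log2 fold change was 2.32 ± 0.52 (adjusted p = 0.009), and 1.53 (adjusted p = 0.0422) without that replicate. Males had 0.520, 1.43, 0.928 and 0.797 CPM on the high fat diet and 0.288, 0.40, 0.173 and 0.352 CPM on chow, again without overlap. Their log2 fold change of 1.56 ± 0.55 did not pass (adjusted p = 0.0745), but passed with DESeq2 (adjusted p = 0.0391) and with only the male groups fitted (adjusted p = 0.0398). The sexes overlapped on each diet, and the difference in the diet change was 0.76 ± 0.76 (adjusted p = 0.725), or -0.03 without female high fat diet replicate 1.

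Ccl5 (ENSMUSG00000035042.3), also called RANTES, is made largely by T and NK cells. In females on the high fat diet it was 1.36, 0.595, 0.673 and 3.14 CPM, and on chow 0.519, 0.582, 0.256 and 0.253 CPM. The groups just failed to meet, at 0.595 against 0.582 CPM. Ccl5 rose in females by 1.83 ± 0.52 (adjusted p = 0.0293), a change that was 1.14 (adjusted p = 0.159) without high fat diet replicate 4, and that also missed the threshold without chow replicate 3 (adjusted p = 0.0735) or 4 (adjusted p = 0.0846). With only the female groups fitted it missed the threshold as well (adjusted p = 0.0546). Male levels were 0.446, 0.373, 0.309 and 0.133 CPM on the high fat diet and 0.165, 0.428, 0.216 and 0.217 CPM on chow, with full overlap and a log2 fold change of 0.28 ± 0.59 (adjusted p = 0.803). On the high fat diet females exceeded males in every library, by 2.15 ± 0.53 (adjusted p = 0.00932), or by 1.47 without female replicate 4, where it barely passed (adjusted p = 0.04998). The difference in the diet change, 1.55 ± 0.79, was not called (adjusted p = 0.422). The other 3 groups, females on chow and males on either diet, overlapped one another.

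Summed markers of T and NK cells, which make Ccl5, did not part the diets. The summed level of 8 T cell markers was 3.52 to 7.34 CPM in females on the high fat diet, 2.79 to 3.86 on chow, 2.68 to 5.84 in high fat diet males and 1.68 to 3.37 in chow males. For 7 NK cell markers the ranges, in the same order, were 2.36 to 5.80, 2.38 to 3.86, 1.11 to 1.65 and 0.839 to 1.63 CPM. All female libraries thus had more NK marker RNA than all male ones. Ncr1, Klre1, Prf1 and Eomes were at 0 in at least 1 male library on the high fat diet. So were Klre1, Nkg7 and Eomes in chow males, and Eomes in females on either diet. Of the 7 markers 3 were tested, and 1 was called higher in females than in males on each diet. Of all tested genes, 7.03% were called higher in females on chow and 8.84% on the high fat diet. Summed markers of B cells did part the diets in females, for 5 genes, at 3.17 to 6.79 CPM on the high fat diet and 1.39 to 2.93 on chow, and were 1.06 to 2.65 and 0.758 to 1.69 CPM in males. No single tested T, NK or B cell marker passed in either diet comparison (at an unadjusted p under 0.05, 1 T and 1 B cell marker did in females and 2 T cell markers in males). Their part in the Ccl5 difference was not tested.

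Ccr2 (ENSMUSG00000049103.15), the receptor for Ccl2 on inflammatory monocytes, rose in both sexes. Females had 4.59, 3.21, 3.81 and 5.65 CPM on the high fat diet against 1.00, 2.36, 1.57 and 1.32 CPM on chow. Males had 3.23, 3.94, 2.85 and 5.84 CPM against 0.618, 1.77, 1.38 and 0.974 CPM. Every high fat diet liver of either sex thus lay above every chow liver of either sex, and within a diet the sexes overlapped. The log2 fold changes were 1.46 ± 0.31 (adjusted p = 0.00662) in females and 1.72 ± 0.32 (adjusted p = 0.00231) in males. Both kept passing in all 16 alternative settings run for each. The difference between them was -0.26 ± 0.44 (adjusted p = 0.859).

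Cx3cr1 (ENSMUSG00000052336.9) is the receptor for the membrane-bound chemokine Cx3cl1 and is carried by patrolling monocytes and some macrophages. In females it was 3.05, 0.628, 1.12 and 3.10 CPM on the high fat diet and 0.222, 0.429, 0.805 and 0.304 CPM on chow, with the second high fat diet library inside the chow range. In males it was 2.16, 1.26, 0.928 and 2.74 CPM on the high fat diet and 0.0824, 0.685, 0.216 and 0.352 CPM on chow, without overlap. The log2 fold changes were 2.17 ± 0.58 (adjusted p = 0.0225) in females and 2.31 ± 0.59 (adjusted p = 0.0182) in males. Both calls were fragile: the female one was lost in 7 of 16 alternatives and the male one in 4 of 16, with adjusted p no higher than 0.0724 and 0.0670. Female high fat diet replicates 1 and 4, female chow replicates 1, 2 and 4, male high fat diet replicate 4 and male chow replicates 1 and 3 each ended the call of their sex when left out, with log2 fold changes from 1.87 to 2.18. The sexes overlapped on both diets. The overlapping antisense gene Gm33858 had at most 0.118 CPM in any library.

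The ligand Cx3cl1 did not pass in either sex, with log2 fold changes of 0.97 ± 0.43 (adjusted p = 0.15) in females and -0.18 ± 0.42 (adjusted p = 0.831) in males. The summed general macrophage and Kupffer cell markers were higher in the female livers on the high fat diet. The summed level of 8 general macrophage and monocyte markers was 321 to 640 CPM in high fat diet females and 204 to 293 in chow females. In males the ranges overlapped, at 231 to 462 and 188 to 356 CPM. Of these 8 markers, 3 rose in females and 1 in males, beside 5.74% and 6.03% of all tested genes called higher. The 6 lipid-associated macrophage markers summed to 60.8 to 102 CPM in high fat diet females, 59.7 to 76.8 in chow females, 61.5 to 105 in high fat diet males and 50.2 to 65.7 in chow males. Of them, 3 rose in females (Gpnmb, Mmp12 and Itgax), and in males 3 rose (Gpnmb, Mmp12 and Trem2) and 1 fell (Cd9). The median log2 fold change of the 6 was 1.40 in females and 1.39 in males, which the sums do not show. That of Gpnmb was 3.47 and 3.48, and that of Spp1 -0.03 and 0.51. Kupffer cell markers summed to 368 to 534 CPM in high fat diet females, above the 222 to 324 CPM of chow females, and overlapped in males at 170 to 373 and 205 to 316 CPM. Only 1 of these 6 markers passed in females (Cd5l), with 4 at an unadjusted p under 0.05, and 0 passed in males. No defining marker of these macrophage lists was at 0 in any library, and their part in the receptor changes was not tested.

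**Figure D3:**
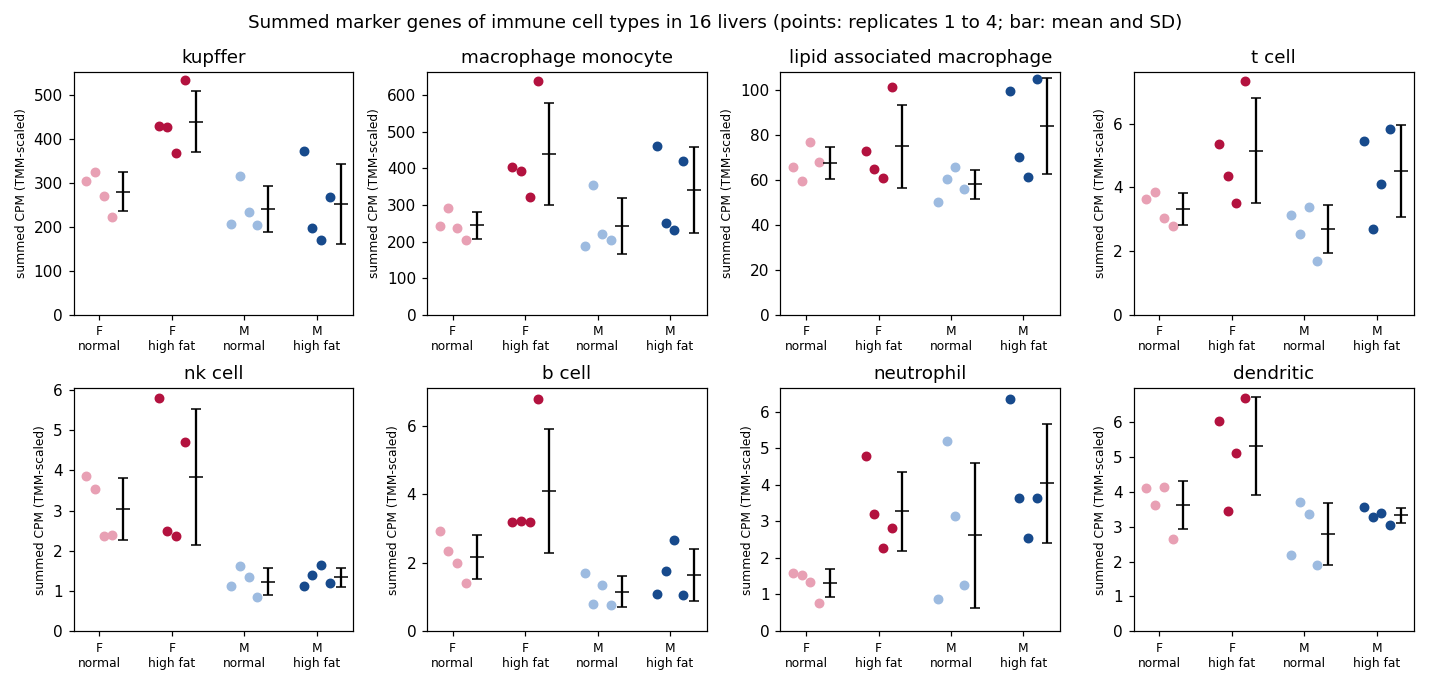
Summed CPM of marker genes for 8 immune cell types in each of 16 livers, by sex and diet, on axes from 0. Points are replicates 1 to 4 and bars the mean and SD. Kupffer and macrophage sums in females on the high fat diet lie above those on chow, and NK cell sums lie higher in all females than in all males.

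Cxcl1 (ENSMUSG00000029380.12), a neutrophil attractant that acts through Cxcr2, had the highest ratio of the highest to the lowest library within a group among the ligands, 7.99 in high fat diet males. Females on the high fat diet had 9.18, 3.01, 3.14 and 4.39 CPM, and those on chow 2.52, 1.35, 0.951 and 0.912 CPM, without overlap. Males had 35.5, 4.45, 4.71 and 17.4 CPM on the high fat diet and 2.47, 8.79, 7.17 and 1.60 CPM on chow. Within the male high fat diet group, replicates 1 and 4 were the high pair, and replicates 2 and 3, the closely alike libraries, fell inside the chow range. The log2 fold changes of 1.81 ± 0.79 (adjusted p = 0.158) in females and 1.63 ± 0.72 (adjusted p = 0.163) in males did not pass, although the female one did with only the female groups fitted (adjusted p = 0.0293). The male value was 0.80 without high fat diet replicate 1. Cxcl1 was the one tested gene of the 9 that was lower in females than in males, by -1.82 ± 0.79 on chow (adjusted p = 0.138) and -1.64 ± 0.72 on the high fat diet (adjusted p = 0.124), neither of which passed. The latter was -0.78 without male replicate 1. Its receptor gene Cxcr2 did not pass the filter on low counts.

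Neutrophil markers varied in the male livers as well. The summed level of 6 such markers was 2.54 to 6.35 CPM in high fat diet males and 0.865 to 5.19 CPM in chow males. Females had 2.28 to 4.77 CPM on the high fat diet and 0.760 to 1.59 CPM on chow, without overlap. Ly6g and Mmp8, which define mature neutrophils, were at 0 in some libraries of all 4 groups. In females 2 of the 3 tested markers rose, and in males 0 did, also at an unadjusted p under 0.05. Their part in the Cxcl1 levels was not tested.

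Cxcl9 (ENSMUSG00000029417.10) and Cxcl10 (ENSMUSG00000034855.14) are ligands of Cxcr3. Cxcl9 was 88.5, 23.6, 41.2 and 86.0 CPM in females on the high fat diet and 25.1, 25.9, 22.7 and 9.25 CPM on chow. The lowest high fat diet library lay inside the chow range, and the log2 fold change of 1.53 ± 0.48 just missed the threshold (adjusted p = 0.0566). It passed in 4 of 16 alternatives, among them DESeq2 (adjusted p = 0.0159), and the adjusted p ranged from 0.0159 to 0.143. Males had 11.7, 25.1, 28.2 and 9.08 CPM on the high fat diet and 10.3, 14.4, 11.9 and 7.74 CPM on chow, with overlap and a log2 fold change of 0.75 ± 0.49 (adjusted p = 0.349). Replicates 2 and 3 were the high pair here, the reverse of Cxcl1. On the high fat diet Cxcl9 was higher in females than in males by 1.68 ± 0.48 (adjusted p = 0.0265). This call was lost without female replicate 1 (adjusted p = 0.0779) or 4 (0.0694), or male replicate 1 (0.0658) or 4 (0.0706), and also without the filter on low counts (0.0574) or with only these groups fitted (0.0808).

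Cxcl10 separated the diets in both sexes. In females it was 23.2, 6.62, 8.79 and 21.0 CPM on the high fat diet and 3.19, 3.65, 3.55 and 1.44 CPM on chow. In males it was 2.45, 4.48, 5.39 and 3.01 CPM on the high fat diet and 2.18, 2.11, 1.25 and 1.60 CPM on chow. Females rose by 2.34 ± 0.41 (adjusted p = 0.00223), which held in all 16 alternatives, while the male change of 1.10 ± 0.42 did not pass (adjusted p = 0.104) except with DESeq2 (adjusted p = 0.0332) and with only the male groups fitted (adjusted p = 0.0344). High fat diet females lay above all other livers, and exceeded high fat diet males by 1.95 ± 0.40 (adjusted p = 0.00364). The difference in the diet change was 1.24 ± 0.58, with an unadjusted p of 0.0486 and an adjusted p of 0.382. Art3 has exons that overlap Cxcl10 on the other strand. It was level with diet in females, at 2.08 ± 0.513 CPM on the high fat diet and 2.03 ± 0.278 CPM on chow (SD, n = 4). In males Art3 was 1.55 ± 0.724 and 1.72 ± 0.575 CPM, beside means of 3.83 and 1.79 CPM for Cxcl10. Its part in the Cxcl10 levels was not tested.

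Per unit of length these were the most abundant of the 10 genes in females on the high fat diet. Their levels there were 30.8 ± 17.2 TPM (a length-scaled share of transcripts, SD, n = 4) for Cxcl9 and 25.0 ± 14.4 TPM for Cxcl10, ahead of Cxcl1 at 10.0 ± 5.91 TPM and Ccl5 at 8.33 ± 6.89 TPM. In high fat diet males the order of the means was another, with Cxcl1 at 28.1 ± 26.5 TPM, Cxcl9 at 8.36 ± 4.19 TPM and Cxcl10 at 5.67 ± 1.93 TPM. Cxcl1 led in male replicates 1 and 4, at 64.1 and 31.9 TPM. Cxcl9 was 5.32 and 4.24 TPM there and Cxcl10 3.64 and 4.56 TPM, so Cxcl10 exceeded Cxcl9 in replicate 4. In replicates 2 and 3 Cxcl9 was the higher, at 11.3 and 12.6 TPM against 7.99 and 8.42 TPM for Cxcl1. The remaining genes were between 0.202 TPM (Tnf) and 2.99 TPM (Cxcl16) on average in that group. The libraries of Cxcl9 (12.2 to 46.0 TPM) and Cxcl10 (11.1 to 38.5 TPM) in high fat diet females overlapped.

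Cxcl16 (ENSMUSG00000018920.12), a membrane-anchored ligand of Cxcr6, had the smallest log2 fold change of the 9 in females, while in males that of Ccl5 was smaller. Females had 10.0, 6.71, 7.22 and 12.4 CPM on the high fat diet and 5.89, 6.93, 6.26 and 5.24 CPM on chow, with 1 high fat diet library inside the chow range. Males had 6.32, 5.91, 5.77 and 6.33 CPM against 4.86, 5.02, 3.59 and 4.90 CPM, a small step without overlap. It rose in females by 0.58 ± 0.17 (adjusted p = 0.0392) and did not pass in males at 0.40 ± 0.18 (adjusted p = 0.153). The female call was lost without high fat diet replicate 1 (adjusted p = 0.0859) or 4 (0.153), and without chow replicate 1 (0.0807), 3 (0.0665) or 4 (0.109). It was also lost with only the female groups fitted (0.0744). Females exceeded males without overlap on the high fat diet by 0.58 ± 0.18 (adjusted p = 0.0262), a call lost without female replicate 1 or 4 or male replicate 2 or 3 (adjusted p from 0.0530 to 0.101), and also with male replicates 2 and 3 averaged (0.0567) or only these groups fitted (0.0621). Its counts were not whole numbers in any of the 16 libraries, so some of its reads were shared with another gene by RSEM. Zmynd15, which overlaps it on the other strand, had 1.16 to 2.55 CPM in high fat diet females and 0.760 to 1.16 CPM in chow females, and its part in the Cxcl16 change was not tested.

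Between the sexes on chow, 1 of the 9 genes differed, Il1b, where 15.7% of all tested genes were called and 7.03% were called higher in females. On the high fat diet, 5 of the 9 were higher in females (Il1b, Ccl5, Cxcl9, Cxcl10 and Cxcl16), beside 20.4% of all genes called and 8.84% called higher. No library of high fat diet males reached the lowest high fat diet female for 4 of these, all but Cxcl9, which held for 10.3% of all genes. On chow this was so for Il1b and Cxcl16, where it held for 9.86% of all genes. The receptors Ccr2 and Cx3cr1 did not differ detectably, at 0.13 ± 0.30 (adjusted p = 0.794) and 0.17 ± 0.52 (adjusted p = 0.844) on the high fat diet. The high fat diet libraries of this comparison are those of the diet comparisons. Without female high fat diet replicate 1 or 4 the count of 5 was 2 (Ccl5 and Cxcl10), and without male replicate 4 it was 3. Of 6 Kupffer cell markers, 5 were called higher in females on the high fat diet. Their summed levels on that diet overlapped, at 368 to 534 CPM in females and 170 to 373 CPM in males. The part of these markers in the sex differences was not tested.

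Among the binding partners of these genes, calls went both ways in females. Of 16 listed receptors, ligands, inhibitors and processing enzymes, 13 were tested, and 2 rose and 2 fell in females while 1 rose in males. For this list and those below, the shares of all tested genes were 5.74% called higher and 5.76% lower in females. In males they were 6.03% and 5.36%. Il1r1, the signalling receptor of interleukin-1, fell by 1.28 ± 0.33 in females (adjusted p = 0.0236), with levels of 62.9 ± 10.8 CPM on chow and 25.9 ± 5.64 CPM on the high fat diet (SD, n = 4). The male levels were 80.7 ± 18.2 CPM on chow and 93.1 ± 50.8 CPM on the high fat diet. Tnfrsf1b, the second receptor for tumour necrosis factor, fell in females by 0.58 ± 0.12 (adjusted p = 0.00572). Casp1, which cuts the interleukin-1 beta precursor, rose in them by 0.82 ± 0.25 (adjusted p = 0.0376). Tnfrsf1a, the first receptor for tumour necrosis factor, rose in males by 0.57 ± 0.15 (adjusted p = 0.017). The female calls of Il1r1 and Casp1 were lost without high fat diet replicate 1 (Il1r1, Casp1) or 4 (Casp1) or without chow replicate 1 (Il1r1, Casp1), 2 (Il1r1) or 4 (Casp1), with adjusted p no higher than 0.146. That of Tnfrsf1a was lost without male high fat diet replicate 4 or chow replicate 3 or 4 (adjusted p no higher than 0.0562), and those of Il1r1 and Tnfrsf1b were lost on log2 TPM. Fitting only the groups compared also ended the calls of Tnfrsf1a (adjusted p = 0.0705) and Casp1 (0.0814). A replicate block in the fit ended those of Casp1 (0.0631) and Il1r1 (0.0523), and leaving out the filter on low counts that of Il1r1 (0.0650).

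Partners that did not pass for diet were the interleukin-1 receptor antagonist Il1rn, at 0.42 ± 0.46 in females (adjusted p = 0.593) and 1.44 ± 0.49 in males (adjusted p = 0.0754), and the lymphocyte receptors Cxcr3 and Cxcr6. Cxcr3, the receptor of Cxcl9 and Cxcl10, had 1.13 ± 0.48 in females (adjusted p = 0.132) and -0.66 ± 0.53 in males (adjusted p = 0.455). Cxcr6, the Cxcl16 receptor, had 0.80 ± 0.43 (adjusted p = 0.235) and 0.30 ± 0.48 (adjusted p = 0.735). Like their ligands, both were higher in females than in males on the high fat diet, by 1.74 ± 0.51 (adjusted p = 0.0223) and 1.70 ± 0.45 (adjusted p = 0.0132). Cxcr3 was low throughout, at 0.640 ± 0.207 CPM in high fat diet females and 0.192 ± 0.163 CPM in high fat diet males (SD, n = 4).

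Of 28 other chemokines listed, 13 had enough counts to be tested, and 1 was called higher in females, and 1 higher and 1 lower in males. At an unadjusted p under 0.05 there were 2 in females and 4 in males. Cxcl11, the further Cxcr3 ligand, rose in females by 1.23 ± 0.38 (adjusted p = 0.042), Ccl6 rose in males by 1.05 ± 0.31 (adjusted p = 0.0401), and Ccl9 fell in males by 0.74 ± 0.19 (adjusted p = 0.0189). That of Cxcl11 was lost without any 1 of 5 of the 8 libraries compared (female high fat diet 1 and 4, chow 2, 3 and 4), with values of 0.87 to 1.25. That of Ccl9 was lost without male high fat diet 2 or 4 or chow 1 or 2, with values of -0.58 to -0.74. That of Ccl6 was lost without male high fat diet 1 or 4 or any chow library, and its value was 0.49 without high fat diet replicate 1. It was also lost without the filter on low counts, with only the male groups fitted and on log2 TPM (adjusted p from 0.0551 to 0.141). Of 9 tested receptors among 15 others listed, edgeR called 0 in either sex, with 1 in females and 2 in males at an unadjusted p under 0.05. Among 10 tested of 26 other cytokines, 3 rose in females, and 2 rose and 1 fell in males. Csf1, the macrophage growth factor, rose by 0.83 ± 0.14 (adjusted p = 0.00119) in females and 0.55 ± 0.14 (adjusted p = 0.0182) in males, and Tnfsf10, which encodes TRAIL, by 1.04 ± 0.22 (adjusted p = 0.00542) and 1.16 ± 0.22 (adjusted p = 0.00313). Tgfb1 rose in females by 0.64 ± 0.16 (adjusted p = 0.0158), and Mif fell in males by 0.77 ± 0.19 (adjusted p = 0.0155). The male calls of Csf1 and Mif were lost without high fat diet replicate 4 (adjusted p = 0.0680 and 0.0570) or chow replicate 1 (0.0505 and 0.0545), and that of Csf1 also without chow replicate 2 (0.0571).

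Genes of the NF-κB pathway and its feedback were all measured. Of 23, 8 rose and 1 fell in females, and 1 rose and 1 fell in males, with median log2 fold changes of 0.49 and 0.17. The difference between the sexes in the diet change was called for 0 of the 23, where 0.677% of all genes were called. Nfkb2, which encodes the p100 subunit, rose in females by 1.11 ± 0.21 (adjusted p = 0.00252), and the adhesion molecule Icam1 by 1.08 ± 0.24 (adjusted p = 0.00765). In males they had 0.49 ± 0.21 (adjusted p = 0.138) and 0.23 ± 0.23 (adjusted p = 0.566). Tnip1, an inhibitor of the pathway, rose in both sexes, by 0.64 ± 0.14 (adjusted p = 0.00763) in females and 0.54 ± 0.14 (adjusted p = 0.0197) in males. The male call was lost without high fat diet replicate 4 (adjusted p = 0.0542) or chow replicate 1 (0.0635), or without the filter on low counts (0.0523). Nfkbia, the inhibitor IκBα that NF-κB itself induces, fell in both, by 0.54 ± 0.12 (adjusted p = 0.00873) and 0.59 ± 0.12 (adjusted p = 0.00506), the female call being lost on log2 TPM (adjusted p up to 0.0871).

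Interferon gamma signalling, which induces Cxcl9 and Cxcl10, was represented by 12 genes, of which 10 were tested. In females 5 rose, with a list median of 0.91, and in males 1 did, with a median of 0.18. Cd274, which encodes PD-L1, had 2.00 ± 0.279 CPM in chow females and 12.4 ± 7.44 CPM in high fat diet females (SD, n = 4). It rose in females by 2.63 ± 0.30 (adjusted p = 5.8e-05) and in males by 1.33 ± 0.31 (adjusted p = 0.0112). The male call was lost with limma on log2(TPM + 1), at 0.63 (adjusted p = 0.0990). Ciita, which drives MHC class II genes, rose in females by 1.94 ± 0.46 (adjusted p = 0.0117), or by 1.34 (adjusted p = 0.0589) without high fat diet replicate 4. Irf1, a transcription factor induced by interferon gamma, was 28.1 to 64.1 CPM in high fat diet females and 14.1 to 19.5 CPM in chow females. In males it was 14.4 to 16.6 CPM on the high fat diet and 15.1 to 18.5 CPM on chow. It rose in females by 1.41 ± 0.19 (adjusted p = 0.000225) and had -0.07 ± 0.19 in males (adjusted p = 0.845). Its diet change differed between the sexes by 1.49 ± 0.27 (adjusted p = 0.0142). Ifng itself gave 20 counts over the 4 high fat diet females, 9 over the chow females, 5 over the high fat diet males and 0 over the chow males, too few to test.

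**Figure D4:**
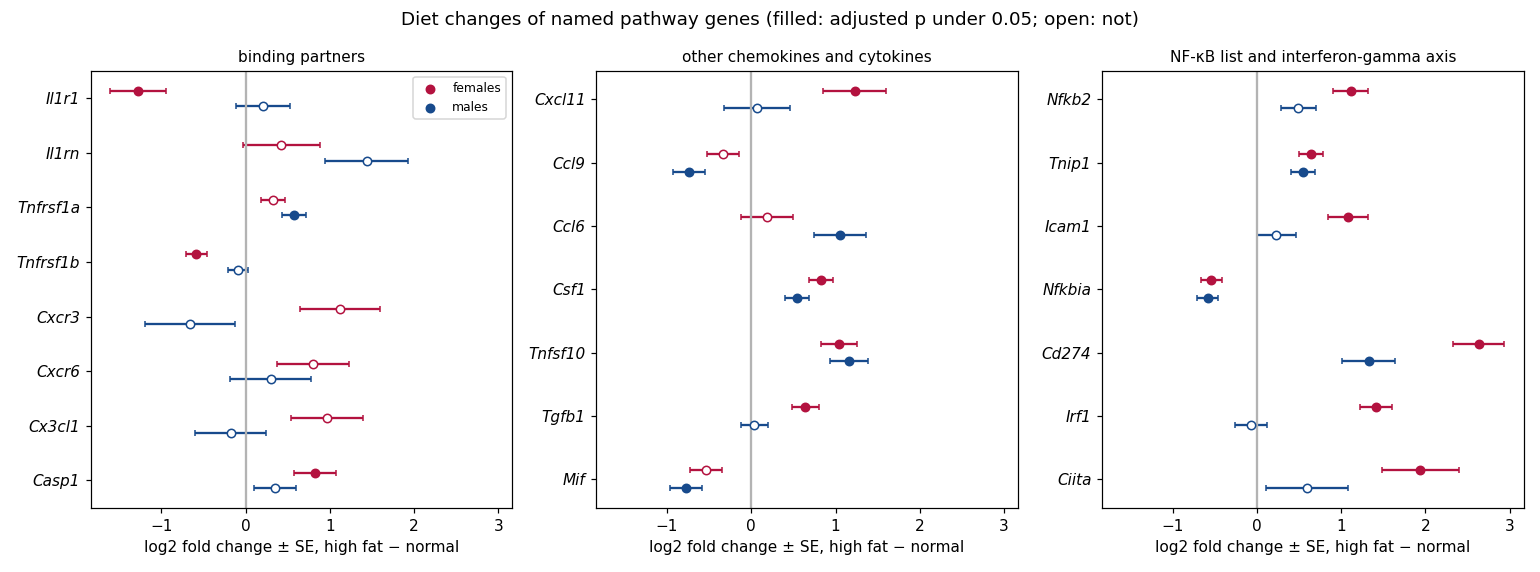
Log2 fold changes with SE, high fat diet minus chow, of partner, chemokine, cytokine, NF-κB and interferon gamma axis genes in females and males. Filled points passed the test. Irf1 rose by 1.41 in females and lay at -0.07 in males, and Nfkbia fell in both.

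How the genes varied from liver to liver was described after subtracting the group means from log2 CPM, over 16 libraries that share 4 groups and a common scaling. Of the 36 pairs, Cxcl9 and Cxcl10 were the most alike, at Pearson r = 0.89 and Spearman rho = 0.89, and r was 0.81 without the 2 libraries farthest from the median of Cxcl9. Ccr2 and Cx3cr1 had r of 0.74, as had Cxcl10 and Cxcl16. Cxcl1 had r of -0.02 to Cxcl10, -0.01 to Il1b, 0.05 to Cxcl9, 0.06 to Ccl2 and 0.17 to Cxcl16, and of 0.32 to Ccl5, 0.35 to Ccr2 and 0.45 to Cx3cr1. The median over the 36 pairs was 0.48. Among all tested genes, those most like Cxcl9 were Gstm3 (r = 0.92) and the interferon-induced GTPase Gbp2 (r = 0.91). For Cxcl10 they were Lsp1 (r = 0.94) and Platr4 (r = 0.93), for Cxcl16 Oasl2 (r = 0.94) and Gbp3 (r = 0.93), and for Cxcl1 Kng2 (r = 0.95) and Flcn (r = 0.95). Il1b was most like Hexa (r = 0.89) and Il2rg (r = 0.88), Ccl2 like Olfm3 (r = 0.88) and Lap3 (r = 0.88), and Ccl5 like Serpinb9 (r = 0.85) and Galk2 (r = 0.85). The closest genes to Ccr2 were Glis2 (r = 0.86) and Babam2 (r = 0.84), and to Cx3cr1 Susd2 (r = 0.90) and Gm4070 (r = 0.89). These are the highest of 14781 values each and are descriptions only.

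**Figure D5:**
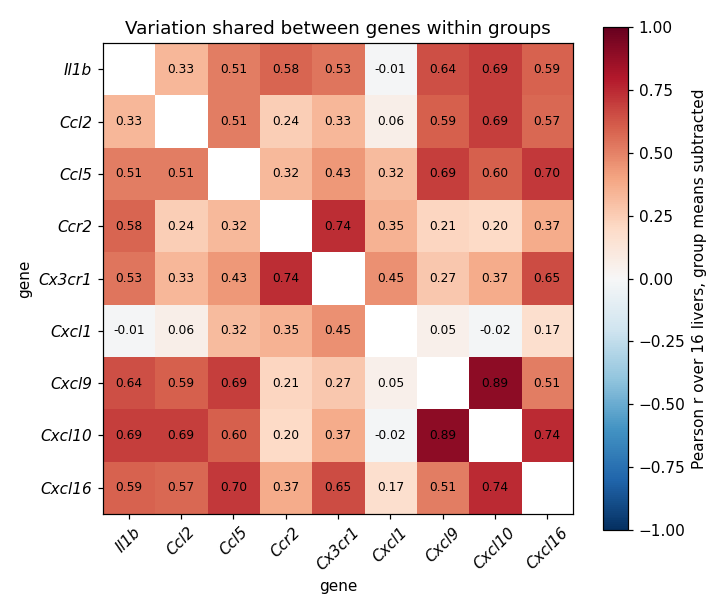
Pearson r between the 9 tested genes over 16 livers after subtraction of group means, from log2 CPM. Red cells are positive and blue cells negative. The Cxcl9 and Cxcl10 cell, at 0.89, is the darkest, and the cells of Cxcl1 with Il1b, Ccl2, Cxcl9 and Cxcl10 are close to white.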

How the data were processed

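Liver RNA was sequenced from poly(A) libraries (NEBNext Ultra, NovaSeq), per the labels' protocols. The authors aligned with STAR and counted with RSEM on GRCm39, per the submitters' processing notes, and deposited expected counts per gene, which need not be whole because shared reads are divided between genes, and TPM, which are scaled for length. Whether strand was used is not given in the sources used here. Symbols were matched for 51487 of 78317 identifiers (98.97% of counts). Counts were rounded, filtered with filterByExpr (14781 genes kept), TMM-scaled and fitted over all 16 libraries with the quasi-likelihood test of edgeR 4.0.16 (robust, R 4.3.3), with no replicate block. The 5 contrasts were diet in each sex, their difference, and sex on each diet. P-values were two-sided and adjusted by Benjamini-Hochberg over all tested genes at 0.05. SE is the log2 fold change over the root of F. Log2 CPM used a prior count of 2. The fit was tested on simulated data. Overlapping genes came from GENCODE M21. The genes, marker and pathway lists were chosen with earlier results of these data known. All 10 genes were named, then partners called for diet or its difference between sexes plus 8 given partners, up to 4 called genes with the smallest p per pathway list and sex, and the 2 genes most like each. Not every gene named by this rule is reported here. DESeq2 1.42.0, limma 3.58.1, other scalings, filters and omitted libraries were alternatives. Same-numbered libraries of different groups did not vary together, so replicate numbers were not used as pairs.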

Additional observations from a re-analysis of the deposited data

Results flagged for a closer look

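Among 40 groups of 4 libraries tested for a library far from the others (10 genes in 4 groups), 2 held one, where chance gives about 1 in 20. In males on chow, Il1b was 0.970 CPM in replicate 2, against 0.648 to 0.677 CPM in the others. Cxcl16 in the same group was 3.59 CPM in replicate 3, against 4.86 to 5.02 CPM. The diet change of Irf1 differed between the sexes, by 1.49 on the log2 scale (edgeR adjusted p = 0.0142, with a range over all alternatives of 8.24e-05 to 0.0462).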

How the results depend on the processing

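In females, 7 genes were called for diet, and 6 to 8 in the alternatives that kept all libraries. In males, 3 were called, 5 with DESeq2 and with only the 2 groups compared, and 2 on log2(TPM + 1), without Cx3cr1. For sex on the high fat diet, 5 were called, 3 with only the 2 groups compared, and 4 without the low-count filter (Cxcl9 lost) and with the 2 alike male libraries averaged (Cxcl16 lost). With single libraries left out, the counts ran from 4 to 8 (diet, females), 2 to 3 (diet, males), 0 (difference of the diet changes), 1 (sex on chow) and 2 to 6 (sex on the high fat diet). With the replicate block, 6, 3, 0, 1 and 5 genes were called, and same-numbered libraries correlated between -0.159 and 0.18 after group means were removed. Without the filter on low counts, Tnf was called in females and Cx3cr1 was not.

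Signs turned for values that were not called. On log2(TPM + 1), the difference of the diet changes was 0.16 for Il1b, 0.10 for Ccr2 and 0.072 for Cx3cr1, and on log2(TPM + 0.1) it was 0.030 for Ccr2. With the 2 alike male libraries averaged, it was -0.13 for Cxcl1, and the sex difference of Cx3cr1 on the high fat diet was -0.0070. With libraries left out, the difference of the diet changes ran from -0.030 to 1.08 (Ccl2), -0.51 to 0.032 (Ccr2), -0.72 to 0.29 (Cx3cr1) and -0.32 to 1.03 (Cxcl1). The sex difference ran from -0.0095 to 0.39 for Ccr2 and -0.13 to 0.49 for Cx3cr1 on the high fat diet, and from -0.12 to 0.92 for Cx3cr1 on chow. The cause was not tested. In females the median change of all genes was 0.15 on log2(TPM + 1) and 0.22 on log2(TPM + 0.1), against 0.00 by TMM. Low counts kept Tnf, Ifng and Cxcr2 out of the edgeR test.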

Other observations

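The balance of the 2 Cxcr3 ligands was looked at after their values were seen. Per unit of length, the ratio of Cxcl10 to Cxcl9 (both in TPM) was 0.857, 0.913, 0.701 and 0.787 in females on the high fat diet and 0.412, 0.463, 0.512 and 0.505 in females on chow, without overlap. The means were 0.815 ± 0.0917 and 0.473 ± 0.0460 (SD, n = 4, exact two-sided permutation p = 0.0286, the smallest possible, 0.114 after adjustment over 4 comparisons). All permutation tests of this ratio compared means of its log2 values. In males the ratio was 0.684, 0.582, 0.628 and 1.08 on the high fat diet and 0.696, 0.480, 0.340 and 0.684 on chow, which overlapped (exact permutation p = 0.257, n = 4). The sexes did not differ detectably on chow (exact permutation p = 0.571) or on the high fat diet (exact permutation p = 0.457).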
